A study of Mus musculus with 4 samples.

Results

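The genes described here encode the mouse actins of non-muscle cells and 8 proteins that bind actin in blood cells. They were chosen by gene symbol, not by measured value, as *Actb*, *Actg1*, *Tmsb4x*, *Tmsb10*, *Pfn1*, *Cfl1*, *Coro1a*, *Lcp1*, *Arpc1b* and *Capg*. All 10 had values in every library, out of 17823 genes with values, and all 10 were among the 5339 genes that passed a filter on low values and were tested. The study injected naringenin (Nar), a plant flavonoid, into C57BL/6 mice and measured messenger RNA in blood by RNA sequencing. The 4 libraries were 2 from mice given Nar for 30 days and 2 from control (Ctrl) mice given phosphate-buffered saline (PBS) for 30 days, numbered 1 and 3 in each group. The sample labels call all of the mice adult, and the study describes them as aging. All libraries came from whole blood of one strain, and the labels name no genetic change. The labels do not say in words that each library is a separate mouse, so the p-values below measure the spread between these libraries.

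Actin is a small globular protein that assembles into filaments, and these filaments drive cell crawling, phagocytosis and shape change in leukocytes and platelets. Thymosins and profilin bind single actin molecules, cofilin takes filaments apart, the Arp2/3 complex starts branches, plastins bundle filaments, and capping proteins stop growth at filament ends. *Actb* is also a common reference gene of quantitative PCR, and the study's methods name it as the reference for qRT-PCR of cultured neural stem cells. The study also reports qRT-PCR of the hippocampus of Nar-treated mice and names no other reference for it. It reports no qRT-PCR of blood. The question put to the blood data here is how *Actb* and its partners stood in Nar-treated and control blood.

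The values are FPKM, fragments relative to transcript length and to all fragments of the library, which the authors deposited rounded to 2 decimals. FPKM corrects for gene length, so levels of different genes can be compared. The sums over genes lay between 1477724 and 1582821 FPKM, and haemoglobin genes made up 92.6% to 96.4% of each sum. Every other gene therefore shares what haemoglobin leaves. Across the tested genes the median log2 fold change with Nar was -1.07, and it was -0.061 once the libraries were scaled by the median of their gene ratios (median-of-ratios scaling), so that most genes stand level. Values and calls below are on FPKM, and those after median-of-ratios scaling are named as such. The number of reads behind the values is unknown, and no counting error can be given. In bulk blood, fewer cells of a type and less RNA per cell cannot be told apart.

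The thymosin pair shows how short and how alike these genes can be. *Tmsb4x* lies at chrX:167207093-167213479 and *Tmsb10* at chr6:72957347-72958748 in GRCm38.p6. Their coding sequences, from the GENCODE transcripts of GRCm38, are both 135 bases long and are identical at 95 of them (70.4%). They are printed 5′ to 3′ because the genes stood so far apart in level. Capitals mark the 40 bases at which the pair differs.

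Tmsb4x: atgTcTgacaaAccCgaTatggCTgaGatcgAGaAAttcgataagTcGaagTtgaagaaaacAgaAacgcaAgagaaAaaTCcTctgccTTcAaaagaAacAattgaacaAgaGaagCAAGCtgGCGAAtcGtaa
Tmsb10: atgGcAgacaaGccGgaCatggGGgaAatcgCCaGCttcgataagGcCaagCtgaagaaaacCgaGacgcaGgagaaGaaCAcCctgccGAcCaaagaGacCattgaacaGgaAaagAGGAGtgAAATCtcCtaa

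The 2 non-muscle actins are closer still. *Actb* (chr5:142903115-142907976) and *Actg1* (chr11:120345687-120348495) have coding sequences of 1128 bases, identical at 1000 of them (88.7%). Reads from the coding sequence of *Actg1* may be hard to place. All of its 1079 windows of 50 coding bases also occur in another annotated gene, and 90.2% occur in the processed pseudogene *Gm12715*. The window of 50 bases was a setting of the search and was not taken from the read length. The same share was 79.1% for *Tmsb10*, 46.5% for *Cfl1*, 33.2% for *Arpc1b*, 19.6% for *Actb* and 15.4% for *Lcp1*. It was 0% for *Tmsb4x*, *Pfn1*, *Coro1a* and *Capg*. How the authors' counting divided shared reads is not given in the sources used here, so the values of genes with shared windows, *Actg1* above all, are uncertain in this respect. Of the genes that share windows, 4 have values in the table for *Actg1*, 3 for *Actb* and 0 for *Tmsb10*, *Cfl1*, *Arpc1b* and *Lcp1*. Untranslated regions were not searched.

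Actin genes are known targets of serum response factor (SRF), which binds the CArG box. The box was searched as CC, then 6 bases of A or T, then GG, which reads the same on the opposite strand. RefSeq windows (GRCm38.p6), from 250 bases before to 50 bases after a start given in the window table, matched 9 of the 10 genes, all but *Actb*, with 13 windows in all. The windows of *Tmsb4x*, *Pfn1* and *Capg* lie inside the gene, away from the outer start of the locus printed here, so that the outer start of these genes was not searched. In the 13 windows a box was found for *Actg1* alone, starting 90 bases before its start. Of all 32851 windows in the table, 1.63% held a box. A match is a description of the letters and not of binding. The *Actg1* window (chr11:120348446-120348745, minus strand) is shown 5′ to 3′ because it is the one among the windows searched that carries the box, given in capitals.

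Actg1 window: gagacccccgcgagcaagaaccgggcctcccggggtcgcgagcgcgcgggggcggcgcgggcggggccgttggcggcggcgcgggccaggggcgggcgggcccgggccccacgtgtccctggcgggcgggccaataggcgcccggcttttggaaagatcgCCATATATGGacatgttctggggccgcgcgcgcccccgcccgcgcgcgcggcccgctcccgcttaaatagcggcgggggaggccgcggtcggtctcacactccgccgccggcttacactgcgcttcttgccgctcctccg

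The blood cells that could carry these transcripts were checked by marker lists. Summed FPKM of 10 neutrophil markers was 1638 and 1361 in Ctrl 1 and Ctrl 3, against 99.6 and 157.3 in Nar 1 and Nar 3, and all 10 genes passed the test as lower, where 39.6% of all tested genes did at the same adjusted p under 0.05 in limma. The sum over 8 monocyte markers was 359.6 and 422.9 in control and 139.9 and 96.7 with Nar, and 5 of 7 tested genes were lower. Most of that sum was *Lyz2* (lysozyme), named for this after its values were seen, at 295.37 and 372.72 FPKM in control and 130.74 and 92.64 with Nar. Leukocyte markers of the myeloid line thus moved in the same direction as the actin genes on FPKM, and their part in the results below was not tested. The sum over 7 platelet markers was 692.6 in Ctrl 1 and 2182 in Ctrl 3, against 596.2 in Nar 1 and 449.5 in Nar 3. Ctrl 3 stands apart there, and no platelet marker passed the test (0 of 7, with limma). Sums of B cell markers lay between 29.1 and 39.3 in all libraries and those of T cell markers between 3.41 and 7.87, with 0 of 7 and 0 of 6 tested genes passing. NK cell markers summed to 17.7 and 19.4 in control and to 7.99 and 3.58 with Nar, and 2 of 6 were lower. Erythroid markers other than haemoglobin summed to 7744 and 9105 in control and to 9197 and 8674 with Nar, and 0 of 10 passed (limma). Once the libraries were scaled by median of ratios, the markers had median log2 fold changes of -2.57 for neutrophil, -0.67 for monocyte, -0.43 for NK cell, 0.001 for platelet, 0.37 for T cell, 0.60 for B cell and 1.56 for erythroid markers. On that scale the neutrophil markers *Ngp*, *Camp* and *Ltf* and the monocyte marker *Cd14* still passed as lower in limma. The other markers called on FPKM did not pass, those of NK cells among them. Muscle markers summed to 0.15 to 0.48, with *Actc1* and *Myh1* listed at 0 throughout.

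Of the 10 actin and actin-binding genes, 6 were lower with Nar at an adjusted p under 0.05 in limma, where 39.6% of all tested genes were called lower. None was called higher, and 0.187% of all tested genes were. For 9 of the 10, each Nar library was lower than each control library, as for 78.3% of all tested genes. None of the 10 was higher in this way, against 1.27% of all tested genes. The median log2 fold change of the 10 was -1.53, beside -1.07 for all tested genes, and 9 of the 10 lay below that median. Median-of-ratios scaling brought their median to -0.42, beside -0.061. On that scale 0 of the 10 passed in limma, 0 at an unadjusted p under 0.05, and 0.356% of all tested genes were called lower and 0.112% higher. Leaving out any 1 of the 4 libraries left 0 of the 10 called in limma, with 3 to 7 at an unadjusted p under 0.05, and the median of the 10 was -1.83 without Ctrl 1 and -1.26 without Ctrl 3. Removal of the haemoglobin genes before rescaling also left 0 called, with 7 at an unadjusted p under 0.05 and a median of -0.91. The plot of FPKM by library shows the 10 genes in all 4 libraries.

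**Figure D1:**
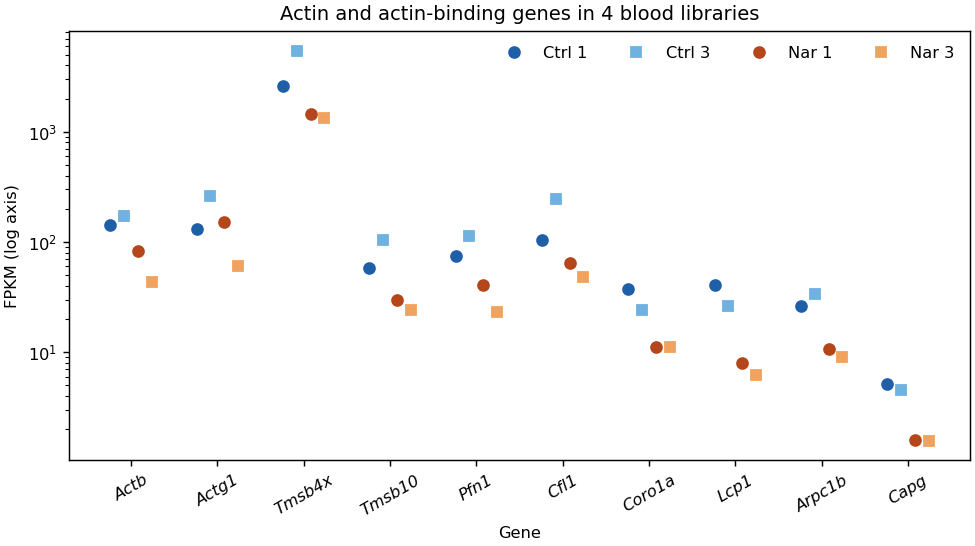
FPKM on a log axis for the 10 genes, 1 point per library, with circles for replicate 1 and squares for replicate 3 of control (blue) and Nar (orange). *Tmsb4x* lies between 1327.04 and 5435.84 FPKM, above all others, and only for *Actg1* do the Nar and control points overlap.

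*Tmsb4x* was the most abundant of the 10 in all 4 libraries and *Capg* the least. *Tmsb4x* alone made up 78.4% to 85.4% of the summed FPKM of the 10 genes. That sum was 3221 FPKM in Ctrl 1 and 6420 FPKM in Ctrl 3, and 1858 FPKM in Nar 1 and 1555 FPKM in Nar 3. As a share of all FPKM outside haemoglobin, the 10 genes held 4.31% and 5.87% in control and 2.82% and 2.73% with Nar. Between these ends, *Actb*, *Actg1* and *Cfl1* held places 2 to 4 in every library. *Actb* changed places with both others between libraries, so its level does not differ from theirs beyond the spread, while *Actg1* was above *Cfl1* in all 4. *Pfn1* and *Tmsb10* held places 5 and 6, and *Lcp1*, *Coro1a* and *Arpc1b* held places 7 to 9.

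Among the actins, *Actb* (beta-actin, the main filament protein of leukocytes) was measured at 143.92 and 173.50 FPKM in Ctrl 1 and Ctrl 3, against 82.36 and 43.78 FPKM in Nar 1 and Nar 3. Each Nar library was below each control library, and the Nar libraries differed from each other more than the control ones did. The means were 158.7 ± 20.9 FPKM in control and 63.1 ± 27.3 with Nar (SD, n = 2 each), and the log2 fold change was -1.39 (SE 0.52). This did not pass the test, with an adjusted p of 0.058. *Actb* lay -0.32 from the median of all tested genes, and 25.3% of them had a lower fold change. After median-of-ratios scaling its log2 fold change was -0.29, with an adjusted p of 0.932.

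*Actg1* (gamma-actin, the other actin of non-muscle cells) was listed at 131.64 FPKM in Ctrl 1 and 259.99 FPKM in Ctrl 3, and 153.46 FPKM in Nar 1 and 60.96 FPKM in Nar 3. It was the one gene of the 10 whose groups overlapped, because Nar 1 was above Ctrl 1. Its log2 fold change was -0.94 (SE 0.60) with an adjusted p of 0.201. The value ranged from -1.60 without Nar 1 to -0.27 without Nar 3, and was -1.43 without Ctrl 1 and -0.44 without Ctrl 3. It was also the one gene whose sign turned with the scaling, to 0.18 after median-of-ratios scaling, where the adjusted p was 0.975. The 4 muscle actins were near 0, at 0.00 to 0.19 FPKM over all libraries.

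*Tmsb4x* encodes thymosin beta 4, which holds a reserve of unpolymerized actin and is abundant in platelets and leukocytes. Its level was 2600.81 and 5435.84 FPKM in Ctrl 1 and Ctrl 3, against 1455.50 and 1327.04 FPKM in Nar 1 and Nar 3. The control libraries differed from each other 2.09-fold, while the Nar libraries lay close together, at 1391 ± 90.8 FPKM (SD, n = 2). The gene fell with Nar, with a log2 fold change of -1.44 (SE 0.38) and an adjusted p of 0.0249. Without Ctrl 3 the value was -0.90, and on the median-of-ratios scale it was -0.33 with an adjusted p of 0.866.

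*Tmsb10*, the related thymosin beta 10, was at 57.54 FPKM in Ctrl 1 and 104.10 FPKM in Ctrl 3, and 29.82 FPKM in Nar 1 and 24.07 FPKM in Nar 3. It fell with Nar by 1.53 on the log2 scale (SE 0.53), with an adjusted p of 0.0485, and stood at -0.42 after median-of-ratios scaling (adjusted p = 0.864). Beside the likeness of the coding sequences printed above, *Tmsb4x* stood 45.2 and 52.2 times above *Tmsb10* in control and 48.8 and 55.1 times above it with Nar. The ratio overlapped between the groups, and its log2 difference was 0.10 (exact permutation p = 0.667, two-sided). With 2 libraries against 2, no exact test of a single value can go below p = 0.333.

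*Pfn1* (profilin 1, which loads actin with ATP and hands it to growing filaments) was at 74.19 and 112.49 FPKM in Ctrl 1 and Ctrl 3, against 41.01 and 23.08 FPKM in Nar 1 and Nar 3. It fell by 1.57 on the log2 scale (SE 0.54), with an adjusted p of 0.0476, and stood at -0.46 after median-of-ratios scaling (adjusted p = 0.835). The Nar mean of 32.0 ± 12.7 FPKM (SD, n = 2) was 34.3% of the control mean of 93.3 ± 27.1 (SD, n = 2). Its call and that of *Tmsb10* were the closest to the threshold among the 6.

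*Cfl1* and *Coro1a* act in the turnover of filaments. *Cfl1* (cofilin 1, which severs old filaments) was at 104.19 FPKM in Ctrl 1 and 245.17 FPKM in Ctrl 3, and 64.22 FPKM in Nar 1 and 47.82 FPKM in Nar 3. The control libraries differed 2.35-fold, the widest gap in control among the 10 genes, and the log2 fold change of -1.53 (SE 0.56) did not pass, with an adjusted p of 0.0561. It was -0.91 without Ctrl 3, and -0.42 after median-of-ratios scaling (adjusted p = 0.887). *Coro1a* (coronin 1A, a leukocyte protein that recruits cofilin and the Arp2/3 complex) was at 37.28 and 24.08 FPKM in Ctrl 1 and Ctrl 3, against 11.11 and 11.21 FPKM in Nar 1 and Nar 3. Here Ctrl 1 was the higher control and the Nar libraries were almost level. Its log2 fold change was -1.42 (SE 0.51), just outside the threshold with an adjusted p of 0.0512, and -0.31 after median-of-ratios scaling (adjusted p = 0.913).

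*Arpc1b* is the Arp2/3 subunit typical of blood cells. It stood at 26.32 FPKM in Ctrl 1 and 33.83 FPKM in Ctrl 3, and 10.63 FPKM in Nar 1 and 8.96 FPKM in Nar 3, with each group close together. It fell by 1.60 on the log2 scale (SE 0.49), with an adjusted p of 0.0353, and stood at -0.50 after median-of-ratios scaling (adjusted p = 0.778). Its paralog *Arpc1a*, the subunit found in most tissues, was at 8.54, 20.95, 10.32 and 7.08 FPKM in the same order, and its groups overlapped. The ratio of *Arpc1b* to *Arpc1a* was 3.08 and 1.61 in Ctrl 1 and Ctrl 3, against 1.03 and 1.27 in Nar 1 and Nar 3. Each Nar ratio was lower than each control ratio, by -0.97 on the log2 scale, at the smallest p the exact permutation test allows (0.333). The difference was -0.50 without Ctrl 1 and -1.43 without Ctrl 3. Among the other paralog pairs compared, the ratios of *Pfn1* to *Pfn2* and of *Lcp1* to *Pls3* were also lower with Nar without overlap. The groups overlapped for the rest of the pairs. A ratio within a library does not depend on the scaling of that library.

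*Lcp1* encodes L-plastin, the actin-bundling protein of leukocytes. Its level was 40.34 and 26.46 FPKM in Ctrl 1 and Ctrl 3, against 7.91 and 6.17 FPKM in Nar 1 and Nar 3. Its Nar mean of 7.04 ± 1.23 FPKM was 21.1% of its control mean of 33.4 ± 9.81 (SD, n = 2 each), the lowest such share of the 10 genes. The log2 fold change was -2.21 (SE 0.51) with an adjusted p of 0.0184, and 5.34% of all tested genes had a lower one. After median-of-ratios scaling it was -1.11 (SE 0.48), the lowest value of the 10 on that scale too, but with an adjusted p of 0.358.

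*Capg* encodes a leukocyte protein of the gelsolin family that caps filament ends without cutting them. It was at 5.14 FPKM in Ctrl 1 and 4.55 FPKM in Ctrl 3, and 1.61 FPKM in Nar 1 and 1.58 FPKM in Nar 3. Although it was the lowest of the 10 in level, its control libraries were the closest together of the 10, with means of 4.84 ± 0.417 FPKM in control and 1.60 ± 0.0212 with Nar (SD, n = 2 each). It fell by 1.54 on the log2 scale (SE 0.39), with an adjusted p of 0.0226, and stood at -0.47 after median-of-ratios scaling (adjusted p = 0.694). Of the related gene *Gsn* (gelsolin), which also severs filaments, 21.75 and 37.26 FPKM were listed in control and 16.07 and 10.89 with Nar. The ratio of *Capg* to *Gsn* overlapped between the groups, from 0.10 in Nar 1 to 0.236 in Ctrl 1.

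**Figure D2:**
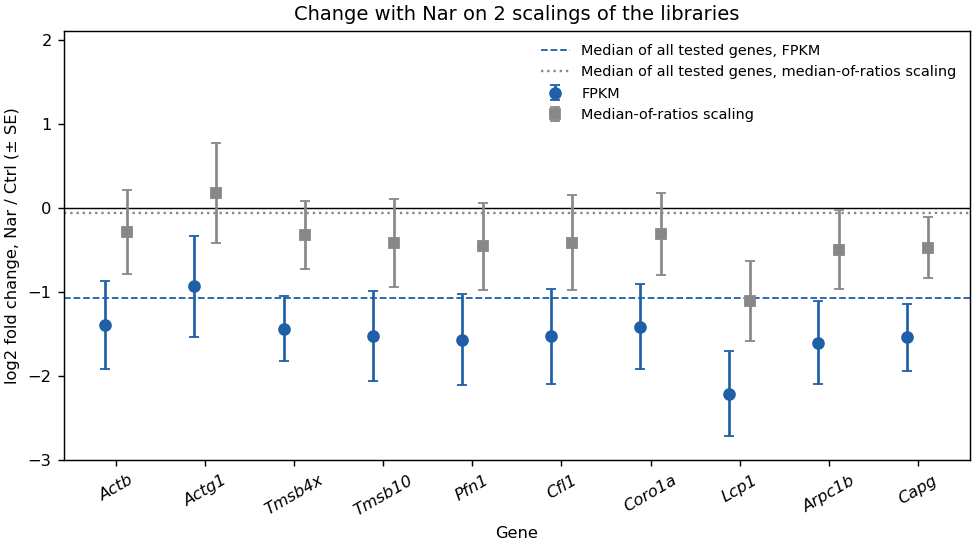
Log2 fold change, Nar against control, with its standard error for each of the 10 genes, from FPKM (blue) and after median-of-ratios scaling (grey), with dashed and dotted lines at the medians of all tested genes. On FPKM the values run from -2.21 for *Lcp1* to -0.94 for *Actg1*, around a median of all tested genes of -1.07. After median-of-ratios scaling they run from -1.11 to 0.18.

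The 10 genes did not vary alike within groups. Compared with Ctrl 1, Ctrl 3 was higher 2.35-fold for *Cfl1*, 2.09-fold for *Tmsb4x*, 1.98-fold for *Actg1*, 1.81-fold for *Tmsb10* and 1.52-fold for *Pfn1*. *Arpc1b* and *Actb* were 1.29-fold and 1.21-fold higher in Ctrl 3. By contrast, *Capg*, *Lcp1* and *Coro1a* were lower in Ctrl 3, at 0.885, 0.656 and 0.646 of their Ctrl 1 level. Between the same libraries the platelet marker sum was 3.15-fold higher in Ctrl 3 and the neutrophil marker sum was 0.831 of that in Ctrl 1. Sums of monocyte, erythroid and NK cell markers were at 1.18, 1.18 and 1.1 of Ctrl 1. Those of B cell and T cell markers were at 0.763 and 0.718. Over all tested genes, 56.6% were higher in Ctrl 3 than in Ctrl 1. Between the Nar libraries, *Actg1*, *Actb* and *Pfn1* were lower in Nar 3, at 0.397, 0.532 and 0.563 of Nar 1. *Lcp1* was at 0.78, *Capg* at 0.981 and *Coro1a* at 1.01. The neutrophil marker sum was 1.58-fold higher in Nar 3, the platelet marker sum was at 0.754 of Nar 1, and 69.1% of all tested genes were lower in Nar 3. Sums of B cell, erythroid, monocyte, T cell and NK cell markers were at 1.06, 0.943, 0.691, 0.671 and 0.448 of Nar 1. These are single pairs of libraries with no replicate of the pair, and were not tested.

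**Figure D3:**
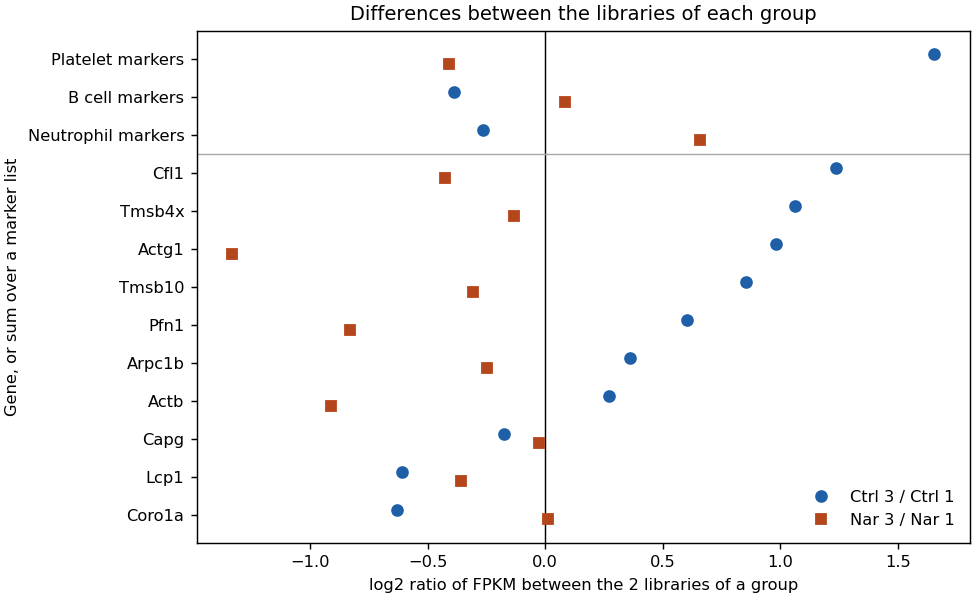
Log2 ratio of FPKM between the libraries of each group, Ctrl 3 over Ctrl 1 (blue circles) and Nar 3 over Nar 1 (orange squares), for the 10 genes and for the sums over 3 marker lists. The control ratios run from -0.63 for *Coro1a* to 1.24 for *Cfl1*, and the sum of platelet markers lies further to the right at a 3.15-fold ratio.

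Relative to *Actb* in the same library, the groups of 8 of the other 9 genes overlapped. By the same ratio, 9.16% of 5297 tested genes with values above 0 in all 4 libraries were lower with Nar without overlap and 25.4% were higher. The exception was *Lcp1*, whose ratio to *Actb* was 0.28 and 0.153 in Ctrl 1 and Ctrl 3, against 0.096 and 0.141 in Nar 1 and Nar 3. The log2 difference was -0.83, or -0.39 without Ctrl 1 and -1.27 without Ctrl 3, at the smallest two-sided p the exact permutation test allows (0.333). The ratio of *Tmsb4x* to *Actb* was 18.1 and 31.3 in Ctrl 1 and Ctrl 3, against 17.7 and 30.3 in Nar 1 and Nar 3. It thus split by replicate number and not by group, with a log2 difference between groups of -0.04 (exact permutation p = 0.667). The ratio of *Actg1* to *Actb* was 0.915 and 1.5 in control and 1.86 and 1.39 with Nar, a log2 difference of 0.46 (exact permutation p = 0.667), or 0.10 without Ctrl 1 and 0.82 without Ctrl 3. The log2 differences of the other 6 genes lay between -0.22 for *Arpc1b* and -0.029 for *Coro1a*. Leaving out 1 library turned the sign for 6 of the 9 genes, as for *Tmsb4x* (-0.44 without Ctrl 1, 0.36 without Ctrl 3) and *Coro1a* (0.42 and -0.48), but not for *Lcp1*, *Actg1* or *Pfn1*.

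The other paralog pairs compared held several genes near 0. *Pfn2* was at 0.18 to 0.77 FPKM, *Cfl2* at 0.14 to 0.38 and *Pls3*, the plastin of solid tissues, at 0.04 to 0.16, so their ratios to *Pfn1*, *Cfl1* and *Lcp1* rest on values near 0. *Dstn* (destrin, a close relative of cofilin) was at 23.56 and 81.48 FPKM in control and 18.53 and 11.19 with Nar. The ratio of *Cfl1* to *Dstn* ran from 3.01 in Ctrl 3 to 4.42 in Ctrl 1, with both Nar values between, and overlapped. The coronins *Coro1b* (8.85, 9.47, 4.16 and 2.85 FPKM in Ctrl 1, Ctrl 3, Nar 1 and Nar 3) and *Coro1c* (1.92, 2.82, 1.02 and 0.78) both fell, with adjusted p of 0.0418 and 0.0308. Their ratios to *Coro1a* overlapped between the groups. Further relatives, named after their values were seen and not compared as pairs, were the coronins *Coro2a* and *Coro7*, both called lower (adjusted p of 0.0247 and 0.0151), and the plastin *Pls1*, at 3.97, 9.38, 4.02 and 2.09 FPKM in Ctrl 1, Ctrl 3, Nar 1 and Nar 3, with overlapping groups.

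*Actb* was set beside 15 other genes that are in common use as qRT-PCR references, because a reference is meant to be level between groups. On FPKM, 15 of the 16 were tested and *Tbp*, the TATA-binding protein, had too low a mean (0.56, 0.52, 0.21 and 0.21 FPKM). Of the 15, 3 were lower, beside the 39.6% of all tested genes, 0 were higher in limma, and 14 did not overlap between groups, all with Nar below, beside 78.3% of all tested genes. Their median log2 fold change was -1.04, close to the -1.07 of all tested genes. The 3 that fell were *B2m* (-1.81, adjusted p = 0.0496), *Hprt* (-1.16, adjusted p = 0.0351) and *Polr2a* (-1.04, adjusted p = 0.0475). *Actb*, at -1.39, was the lowest of the 15 after *B2m*. After median-of-ratios scaling 0 of the 15 passed in limma, 0 at an unadjusted p under 0.05, and their median was -0.011.

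*B2m*, the light chain of MHC class I, was at 1012.94 FPKM in Ctrl 1 and 4728.47 in Ctrl 3, a 4.67-fold gap between controls. *Gapdh*, the glycolytic enzyme used most often beside *Actb*, was at 39.02, 82.08, 22.51 and 28.07 FPKM in Ctrl 1, Ctrl 3, Nar 1 and Nar 3, with a log2 fold change of -1.17 (adjusted p = 0.105). On FPKM the references nearest to level were *Tfrc* (the transferrin receptor, -0.21), *Hsp90ab1* (a chaperone, -0.37) and *Rplp0* (a ribosomal stalk protein, -0.52). After median-of-ratios scaling these stood at 0.70, 0.74 and 0.59, and the nearest to level were *Polr2a* (-0.011), *Gapdh* (-0.060) and *Ywhaz* (0.071). *Tfrc* is also on the erythroid marker list. It was at 0.66, 0.43, 0.69 and 0.28 FPKM in Ctrl 1, Ctrl 3, Nar 1 and Nar 3. Its mean was close to the filter of 0.5 FPKM, and it was the one tested reference whose groups overlapped. The rest lay between -1.27 for *Ppia* and -0.71 for *Eef1a1*, with *Pgk1* at -1.25, *Gusb* at -1.04, *Ywhaz* at -1.03, *Sdha* at -0.78 and *Rpl13a* at -0.77, and none of these passed.

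**Figure D4:**
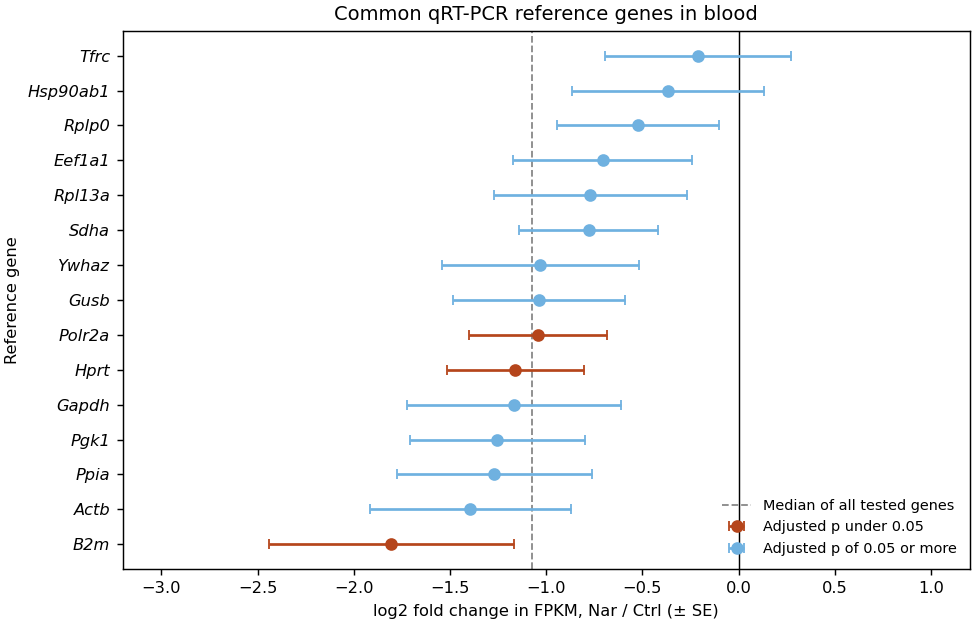
Log2 fold change in FPKM, Nar against control, with its standard error for the 15 tested reference genes, in red where the adjusted p was under 0.05. All 15 values lie below 0 on FPKM (8 of 15 do after median-of-ratios scaling), from -1.81 for *B2m* to -0.21 for *Tfrc*, and the dashed line marks the median of all tested genes at -1.07.

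Divided by *Actb* in the same library, 5 of the 15 other references were higher with Nar without overlap between the groups, against 25.4% of 5297 tested genes with values above 0 throughout. These were *Rplp0*, *Ywhaz*, *Tfrc*, *Eef1a1* and *Hsp90ab1*, each at the smallest two-sided p the exact permutation test allows (0.333). The ratio of *Hsp90ab1* to *Actb*, for instance, was 0.152 and 0.089 in control and 0.187 and 0.300 with Nar, a log2 difference of 1.03. For *Gapdh* the ratio was 0.271 and 0.473 in Ctrl 1 and Ctrl 3, against 0.273 and 0.641 in Nar 1 and Nar 3, a log2 difference of 0.23 (exact permutation p = 0.667) with overlapping groups. *Ppia* and *Pgk1* had log2 differences from *Actb* of 0.13 and 0.12, both with exact permutation p = 1 and overlapping groups.

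The wider actin cytoskeleton was described by a list of 120 genes in 11 roles, which contains the 10 genes above. Of these, 119 had values (*Vil1* had none), 91 were tested, 35 were lower and 0 were higher in limma. In 70 of the 91 the Nar libraries were lower without overlap, beside 78.3% of all tested genes, and the share called lower was near the 39.6% of all tested genes. The median log2 fold change was -1.26, beside -1.07 for all tested genes. Without the 10 genes above, 29 of 81 were lower and the median was -1.23. After median-of-ratios scaling 0 of the 91 passed in limma, 6 at an unadjusted p under 0.05, and the median was -0.20, beside -0.061 for all tested genes. On that scale 63 of the 91 stayed below 0, and the share of all tested genes below 0 was not counted.

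**Figure D5:**
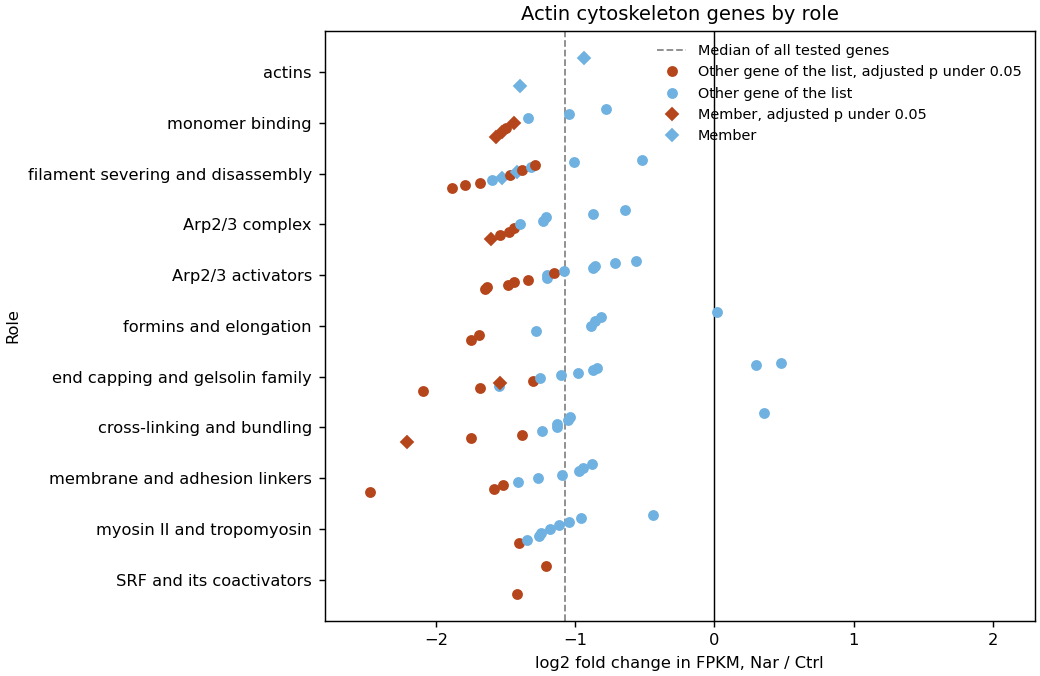
Log2 fold change in FPKM, Nar against control, of the 91 tested genes of the actin cytoskeleton list by role, 1 point per gene, with the 10 genes of the report marked and a dashed line at the median of all tested genes. The values run from -2.47 to 0.48, and 4 genes lie above 0.

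The counts called lower in each role below stand beside the 39.6% of all tested genes. Among proteins that bind actin monomers, 4 of 7 were lower, or 1 of 4 without *Tmsb4x*, *Tmsb10* and *Pfn1*. *Twf2*, a twinfilin, fell by 1.5 on the log2 scale with an adjusted p of 0.0227. *Cap1*, which recycles actin from cofilin, was at 26.23 and 47.22 FPKM in control and 17.70 and 10.80 with Nar, and did not pass, with an adjusted p of 0.0737. Its relative *Cap2* overlapped between groups, at -0.78. For severing and disassembly, 6 of 12 tested genes were lower and all 12 had Nar below control on FPKM, beside 78.3% of all tested genes, while 11 of the 12 had a log2 fold change below 0 after median-of-ratios scaling (the exception was *Ssh1*, at 0.41). *Ssh2*, a slingshot phosphatase that activates cofilin, fell by 1.88 with an adjusted p of 0.0117, while *Ssh1* was at -0.52 with an adjusted p of 0.286.

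Of the Arp2/3 subunits, 4 of 9 were lower. *Actr3*, one of the actin-related proteins at the core of the complex, was at 20.07 and 18.60 FPKM in control and 8.28 and 5.23 with Nar, with an adjusted p of 0.0399. *Arpc2*, the most abundant subunit of the complex here, was at 42.74, 91.78, 30.05 and 18.68 FPKM in Ctrl 1, Ctrl 3, Nar 1 and Nar 3 and did not pass, with an adjusted p of 0.0741. Among activators of the complex, 6 of 13 were lower. *Hcls1*, the cortactin relative of blood cells, fell by 1.65 with an adjusted p of 0.0275. *Abi2*, a subunit of the WAVE complex, was at -0.56 with an adjusted p of 0.251.

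Formins and elongation factors had the least negative median of the roles, -0.89, with 2 of 7 lower. *Fmnl1*, the leukocyte formin, fell by 1.75 (adjusted p = 0.024), and *Vasp*, which speeds up growth at filament ends, fell by 1.69 (adjusted p = 0.0278). *Diaph3*, a formin used in cell division, was at 3.97 and 2.66 FPKM in control and 3.42 and 3.19 with Nar, a log2 fold change of 0.022. Among capping proteins and gelsolin relatives, 4 of 12 were lower, led by *Svil* (supervillin), which fell by 2.09 with an adjusted p of 0.0111. *Capzb*, a subunit of capping protein, was at -1.55 with an adjusted p of 0.0623. *Tmod1* and *Add2*, which belong to the membrane skeleton of red cells, had log2 fold changes of 0.30 and 0.48. *Add1*, the other adducin of that skeleton, was at 6.66, 16.65, 6.68 and 4.89 FPKM in Ctrl 1, Ctrl 3, Nar 1 and Nar 3, a log2 fold change of -0.87 (adjusted p = 0.199). The groups overlapped for all 3 genes.

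For cross-linking and bundling, 3 of 9 were lower. *Lsp1*, a leukocyte actin-binding protein, was at 32.06 and 23.99 FPKM in control and 7.84 and 8.52 with Nar and fell by 1.75 (adjusted p = 0.0283). *Tagln2* (transgelin 2) was at -1.04 with an adjusted p of 0.126. *Dmtn* (dematin, the bundling protein of the red cell skeleton) was at 0.36, one of the 4 genes of the list above 0.

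Of the linkers to membrane and adhesion sites, 3 of 9 were lower. *Pxn* (paxillin, an adaptor of focal adhesions) had the lowest fold change of the whole list, at 5.98 and 4.38 FPKM in control and 0.80 and 0.88 with Nar, a log2 value of -2.47 (SE 0.39, adjusted p = 0.00553). *Zyx* (zyxin) was at 167.21 FPKM in Ctrl 1 and 667.53 in Ctrl 3, a 3.99-fold gap between controls, and did not pass (adjusted p = 0.123). *Fermt3*, which activates integrins in blood cells, had overlapping groups at -0.88.

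Of the myosin II and tropomyosin genes, 1 of 9 was lower. That gene was *Myl12b*, a regulatory light chain (-1.40, adjusted p = 0.0461). *Myl6*, the essential light chain, was at 473.64, 1058.02, 361.61 and 268.72 FPKM in Ctrl 1, Ctrl 3, Nar 1 and Nar 3 (adjusted p = 0.0741), and *Tpm1* overlapped at -0.44.

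The factor that reads the CArG box and one coactivator were called lower on FPKM, and neither passed after median-of-ratios scaling. *Srf* was at 0.88 and 1.70 FPKM in control and 0.50 and 0.31 with Nar (-1.42, adjusted p = 0.0328, and -0.46 after median-of-ratios scaling, adjusted p = 0.741). *Mrtfa*, listed under its older symbol *Mkl1*, was at 2.40 and 1.3 FPKM in control and 0.76 and 0.66 with Nar (-1.21, adjusted p = 0.0399, and -0.20 after that scaling, adjusted p = 0.943). The median of all tested genes on FPKM was -1.07. The other coactivator, *Mrtfb*, was too low to be tested, at 0.08 to 0.14 FPKM. *Actg1*, whose window holds the box, did not pass.

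Over the 4 libraries, the tested genes whose centred profile of log2(FPKM + 0.1) lay nearest to that of *Actb* by Euclidean distance were *Tnfaip8l2* (0.0564), *Lgalsl* (0.0732), *Atf6* (0.0769), *H2afz* (0.0859) and *Abca7* (0.0997). With 4 libraries this is a description of shape. *Tnfaip8l2*, for example, was at 4.62, 5.89, 2.72 and 1.39 FPKM in Ctrl 1, Ctrl 3, Nar 1 and Nar 3. Of the other 9 genes, *Pfn1* was the closest to *Actb*, at rank 84, and *Lcp1* the farthest, at rank 3484. Among themselves, the closest pair was *Tmsb4x* and *Tmsb10* (0.213), followed by *Tmsb4x* and *Cfl1* (0.255), and the farthest was *Actg1* and *Lcp1* (1.83).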

How the data were processed

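Blood messenger RNA of 4 mouse libraries, 2 Ctrl and 2 Nar, was analysed, and groups were taken from the sample labels. The authors deposited 1 FPKM value per gene and library, given to 2 decimals. The submitters' processing notes name TopHat2, Cufflinks and GRCm38 without a role or version, the study's methods name bowtie-2, and the annotation is not given in the sources used here. Of 23136 genes listed, 5313 were blank and 17823 had values. Steps of whole reads were sought with the longest annotated transcript of each gene, which need not be the length behind the deposited values. No clear steps were seen, which does not measure counting error. Depth is unknown, and the p-values rest on the spread between libraries. There were 0 columns of other samples.

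Expression was tested on log2(FPKM + 0.1), a scale that understates the change of low genes, over 5339 genes with a mean of at least 0.5 FPKM, using limma 3.58.1 (lmFit, then eBayes with a trend) in R 4.3.3. All adjusted p-values are from limma with Benjamini-Hochberg adjustment over all tested genes, and a gene was called at 0.05. The script was tested on simulated data. DEGseq, which the study used, needs read counts and could not be repeated. Ratios within a library were tested with an exact two-sided permutation test. Alternatives were pseudocounts of 1 and 0.01, no filter, a mean of at least 5 FPKM, median-of-ratios scaling, TPM, rescaling after the haemoglobin genes were removed, no trend, a replicate block and each library left out. A crossed block was added after seeing the data.

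The 10 genes, the actin cytoskeleton list, the reference genes and the marker lists were chosen with earlier results of these data known, and some genes of these lists are not reported here. Named genes were the 10, all reference genes, 1 or 2 paralogs of each, the most abundant and the highest and lowest fold change in each role, and the 5 genes nearest to *Actb*. Some muscle actins, *Myh1*, *Mrtfb*, *Vil1*, *Lyz2*, *Ngp*, *Camp*, *Ltf*, *Cd14*, *Tmod1*, *Add1*, *Coro2a*, *Coro7* and *Pls1* are named outside this rule, after their values were seen. Shared windows were counted over GENCODE M21 transcripts. Python 3.11.15 with matplotlib 3.10.9 made the plots.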

Additional observations from a re-analysis of the deposited data

How the results depend on the processing

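Results were called in limma at an adjusted p under 0.05 throughout, and counts are given for all tested genes, the 10 genes, the actin cytoskeleton list and the reference genes in that order. On FPKM they were 2123 of 5339 (2113 lower, 10 higher), 6 of 10, 35 of 91 and 3 of 15. Median-of-ratios scaling left 25 (19 lower, 6 higher), 0, 0 and 0, with 745, 0, 6 and 0 at an unadjusted p under 0.05. It moved the median log2 fold change of the 10 genes from -1.53 to -0.42 and that of all tested genes from -1.07 to -0.061, and it reversed *Actg1* to 0.18. Removal of the haemoglobin genes left 172, 0, 1 and 0, with 990, 7, 26 and 1 at an unadjusted p under 0.05, and medians of -0.91 and -0.56. Without a filter, where 16382 genes were tested, the counts were 0, 0, 0 and 0, with 4978, 8, 56 and 8 at an unadjusted p under 0.05, and the median of all genes was -0.58. A mean of at least 5 FPKM left 117 of 1083, 2 of 9, 6 of 48 and 1 of 10, and a median of all genes of -0.94. A pseudocount of 1 gave a median of all genes of -0.62. The cause of these differences was not tested.

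Leaving out 1 library gave 0 to 259 called genes, 0 of the 10 genes in each case, 0 to 1 of the list and 0 of the reference genes, and medians of all genes from -1.22 to -0.93. Without Ctrl 1 or Ctrl 3, 0 genes were called in all, with 2682 and 2133 at an unadjusted p under 0.05. Without Nar 1 or Nar 3, 259 and 213 were called. Of the 10 genes, 7, 5, 3 and 3 had an unadjusted p under 0.05 without Ctrl 1, Ctrl 3, Nar 1 and Nar 3. The library left alone in its group is then assumed to vary like the other group. So none of the 6 calls was kept in these fits, which have fewer libraries, while the median of the 10 genes stayed between -1.83 and -1.26.

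Whether libraries of equal number, Ctrl 1 with Nar 1 and Ctrl 3 with Nar 3, belong together could not be decided. Across genes their deviations had r = -0.153, and those of Ctrl 1 with Nar 3 had r = 0.153. In a group of 2 libraries the deviations mirror each other, so these values are not independent and can neither show nor exclude pairing. With the replicate block, 1815 genes, 3 of the 10 genes (*Lcp1*, *Tmsb4x* and *Capg*), 17 of the list and 2 references were called. With the numbers crossed, an alternative chosen after seeing the data, the counts were 3233, 10, 71 and 8. Of 139 fold changes of the 10 genes under these alternatives, 138 were below 0, 80 stayed on their side of the threshold, 50 lost their call and 8 gained one. The other alternatives, among them TPM and no trend, kept the counts within 1.5 times. With 2 libraries a group and no read numbers, small differences could not be seen, and no group was large enough to test for a library far from the others.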
